A study of Mus musculus with 6 samples.

Results

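Actin and 8 of the proteins that bind it, encoded by 10 genes, were followed in ribosome footprints of mouse CD4+ T cells. The genes were chosen by Ensembl identifier, with symbols given alongside: the cytoplasmic actins Actb and Actg1, the monomer and turnover factors Cfl1, Pfn1 and Tmsb4x, the branched-network proteins Arpc2 and Coro1a, the bundling protein Lcp1, the membrane linker Msn and the motor Myh9. All 10 were among the 22322 genes of the deposited table, and all 10 passed the low-count filter, which left 6775 genes. They were picked for their function with the coding-sequence (CDS) counts of activated against resting cells known. Their changes between those groups are therefore descriptions, and no p-value is printed for a member. Where a member is said to be called, or to lose its call, that too is a description and not a test of the member.

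Ribosome profiling sequences the mRNA fragments that ribosomes protect. The 3 activated libraries came from cells treated with beads that carry antibodies to CD3 and CD28, which stand in for antigen and costimulation; the 3 resting libraries came from cells without that treatment. All 6 used primary CD4+ T cells of female C57BL/6J mice aged 6 weeks, taken from lymph nodes and spleen and isolated by depleting other cells, and all were labelled untreated at 0 h of the study's drug time course. The labels do not say how long the beads acted or whether animals were pooled. The libraries were labelled biological replicates 2, 3 and 4 in each group, without saying whether each was a separate animal or culture, so the spread between them may be partly technical.

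CDS counts summed to between 511483 and 1074656 in activated libraries and between 437200 and 594508 in resting libraries. The file gives identifiers without symbols, and the gene table used here held none of those identifiers, so 0 of 22322 matched. Markers of CD4+ T cells and of other cell types, and the wider actin pathway, were therefore not analysed here. Footprints count ribosomes on mRNA. More mRNA per cell, more ribosomes per mRNA and another mix of cells in the sample cannot be told apart in these libraries.

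Actin monomers assemble into filaments that push, pull and shape the T cell cortex, and a T cell that meets antigen rebuilds these filaments at the contact site. Profilin feeds monomers to growing ends, thymosin beta 4 holds monomers back, and cofilin severs and disassembles old filaments. The Arp2/3 complex starts branches, coronin 1A binds filaments and the Arp2/3 complex, L-plastin bundles filaments, moesin ties them to the membrane, and non-muscle myosin IIA contracts them. Transcription of actin genes is a textbook target of serum response factor (SRF), whose DNA site is the CArG box, and whose MRTF cofactors are held in check by free actin monomers.

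Promoter sequence is shown for the member whose coding footprints were highest relative to resting cells (Actg1), for the highest binding protein (Lcp1) and for the lowest member (Tmsb4x). Each stretch is the 150 bases before a RefSeq start, read 5′ to 3′ on the gene's strand in GRCm38.p6. Only 1 start was used per gene, and it need not be the outermost. The Tmsb4x stretch lies inside the RefSeq span of its gene, chrX:167207093-167213479, and the Lcp1 stretch ends just inside that of Lcp1. Capitals mark matches on either strand to a CArG box, to the GC box with the letters GGGCGG, to the CCAAT box with the letters of its name, or to the TATA box, searched as TATAAA. The CArG and CCAAT matches of Actg1 do not overlap its GC boxes. The Actg1 stretch lies at chr11:120348496-120348645 on the minus strand, the Lcp1 stretch at chr14:75130973-75131122 on the plus strand and the Tmsb4x stretch at chrX:167209219-167209368 on the minus strand.
Actg1: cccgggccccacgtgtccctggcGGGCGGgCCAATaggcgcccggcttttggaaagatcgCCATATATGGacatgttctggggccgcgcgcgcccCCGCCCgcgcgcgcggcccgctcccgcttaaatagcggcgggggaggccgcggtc
Lcp1: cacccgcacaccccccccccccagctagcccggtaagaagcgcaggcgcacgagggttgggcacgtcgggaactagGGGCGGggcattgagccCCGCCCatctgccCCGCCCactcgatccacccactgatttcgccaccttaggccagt
Tmsb4x: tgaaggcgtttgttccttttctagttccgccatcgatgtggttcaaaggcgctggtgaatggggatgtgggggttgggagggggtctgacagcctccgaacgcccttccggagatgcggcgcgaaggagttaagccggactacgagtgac

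RefSeq promoter windows of 300 bases, with 250 before the start and 50 after it, were found for 9 of the 10 genes, in 11 windows because Coro1a and Lcp1 had more than 1 start; Actb had no entry. A CArG box was found in 1 of the 11 windows, that of Actg1, where it reads the same on both strands and spans positions -90 to -81 from the start. Over all 32851 windows of the table, 1.63% held a CArG box. A GC box was found in 10 of the 11 windows, against 35.7% of all windows; a CCAAT box in 3, against 37.4%; and a TATA box in 1, against 13.6%. The stretch printed for Tmsb4x held none of these motifs, and its window held a GC box further upstream. A match is a run of letters and does not show that a factor binds there.

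The actins, Lcp1 and Pfn1 had the highest relative increase among these genes. Gene positions are those of RefSeq in GRCm38.p6, the build that mm10 is based on. Values are coding-sequence CPM, the usual per-library scaling of counts to a common total, adjusted between libraries by trimmed mean of M values (TMM). Actb (ENSMUSG00000029580.13, chr5:142903115-142907976), beta-actin, had 16017, 19911 and 17085 CPM in activated replicates 2, 3 and 4, against 8890, 9096 and 8191 CPM in resting replicates 2, 3 and 4. Actg1 (ENSMUSG00000062825.14, chr11:120345687-120348495, minus strand), gamma-actin, had 7973, 9708 and 9461 CPM in activated libraries, against 2601, 3023 and 2857 CPM in resting libraries. For both genes every activated library lay above every resting library, with a wide gap for Actg1.

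The fitted log2 change was 1.02 (SE 0.17) for Actb and 1.68 (SE 0.16) for Actg1, so that footprints averaged 2.03-fold and 3.20-fold their resting level. These changes stood at the 85.5th and the 93.6th percentile of the 6775 genes tested. Gamma-actin gained on beta-actin. Within a library, where scaling cancels, there were 201, 205 and 181 Actb counts per 100 Actg1 counts in activated replicates 2, 3 and 4, and 342, 301 and 287 in resting replicates. The groups did not overlap in that ratio, and the log2 ratio was -0.66 in activated relative to resting cells. Ratios did not overlap in 32 of the 45 pairs of members. The share over pairs of other genes was not computed, so that count says nothing particular to this set. Actb and Actg1 encode nearly identical proteins and have near-identical relatives in the genome. Records that aligned to several places were left out of gene counts, and these made up 65.8% to 79.6% of the records of a library. How many of them came from actin is not known, so the counts of both genes and their ratio are uncertain.

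**Figure D1:**
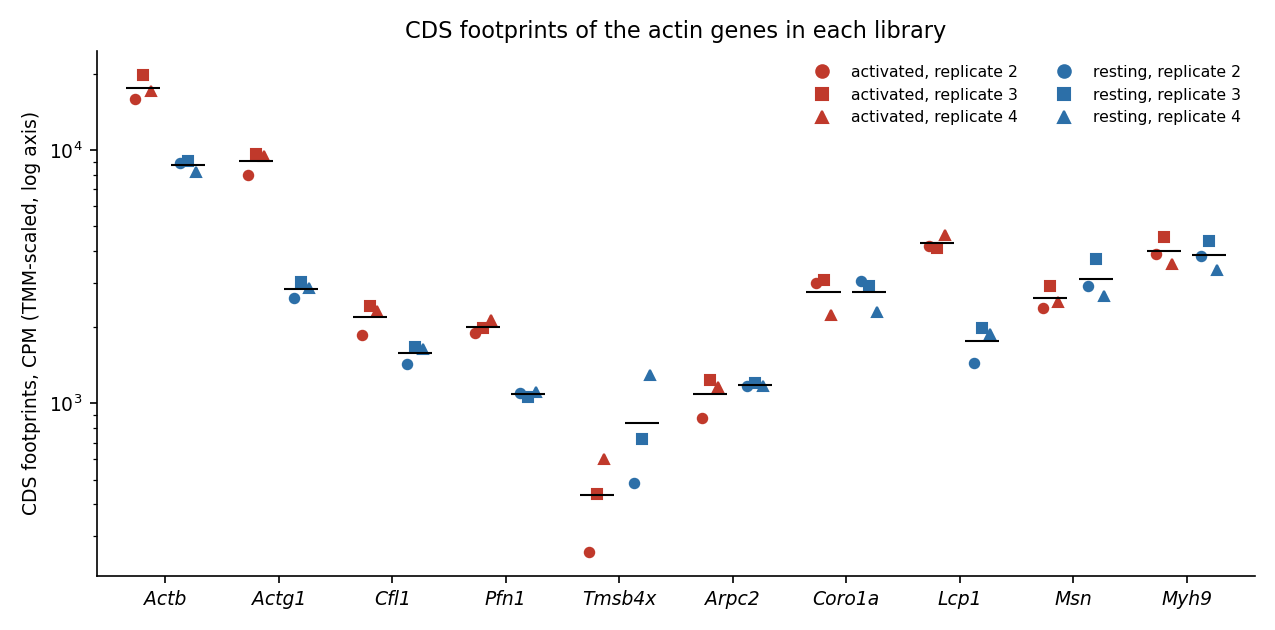
Coding footprints of the 10 genes in each library, as TMM-scaled CPM on a log axis, activated libraries (red) left of resting libraries (blue); bars are means of 3 libraries. Actb, Actg1, Cfl1, Pfn1 and Lcp1 are higher in every activated library than in any resting library, and the groups overlap for the other 5 genes.

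On the scale of library totals, the actins took a larger share of coding footprints in activated cells, and the 8 binding proteins as a sum did not. The second part depends on the scaling. With TMM-scaled CPM, the sum over the 8 binding proteins was higher in every activated library than in any resting library. The median log2 change over all genes was -0.38 on library totals, against -0.04 in the TMM-scaled fit. The 10 genes held 3.64%, 4.40% and 3.99% of all CDS counts in activated replicates 2, 3 and 4, and 2.93%, 3.25% and 2.89% in resting replicates 2, 3 and 4 (95% Wilson half-widths of at most 0.0513 percentage points, counting error only). Actb and Actg1 together held 2.32 ± 0.26% in activated and 1.26 ± 0.06% in resting libraries (SD, n = 3 each). The 8 binding proteins held 1.69 ± 0.12% in activated and 1.76 ± 0.14% in resting libraries, a difference smaller than the spread within either group. Of the counts on the 10 genes, the actins made up 57.9 ± 1.1% in activated and 41.7 ± 1.0% in resting libraries.

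**Figure D2:**
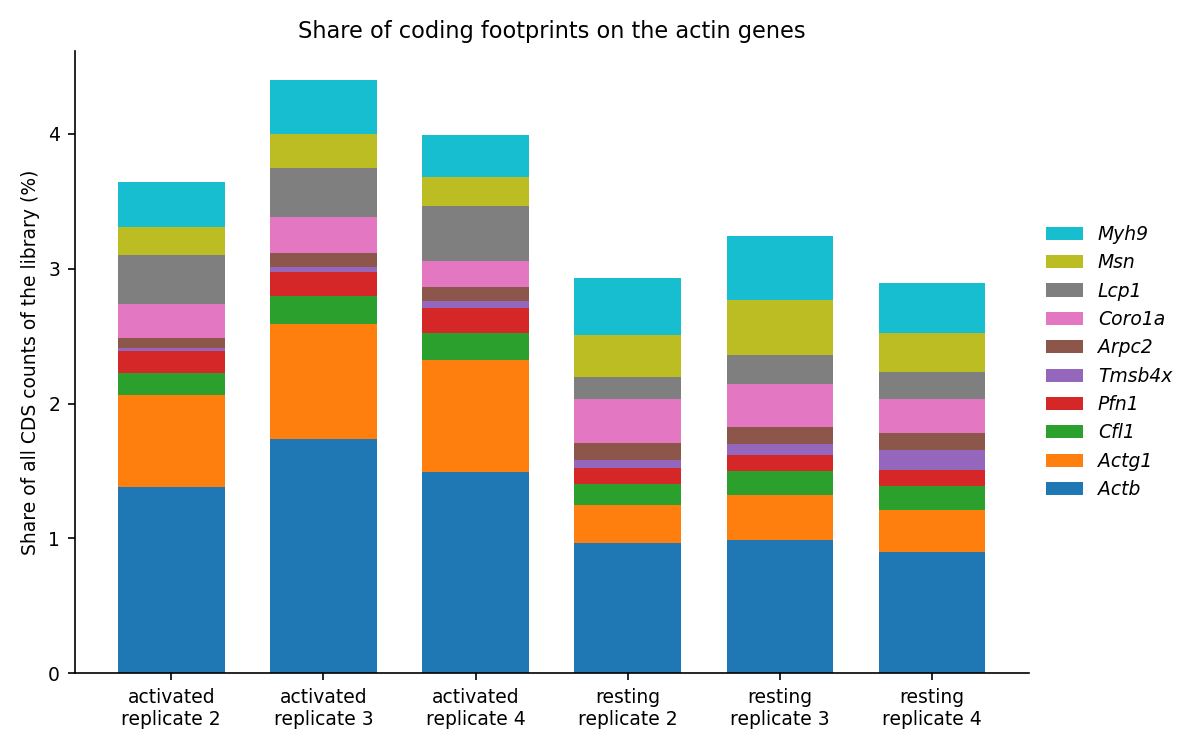
Share of all CDS counts of each library (%) that fell on the 10 genes, stacked by gene, with activated libraries left of resting libraries. The blue and orange parts, Actb and Actg1, are larger in the 3 activated libraries, where the whole stack reaches 3.64% to 4.40%, against 2.89% to 3.25% in resting libraries.

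The proteins that handle actin monomers and old filaments differed in direction. Pfn1 (ENSMUSG00000018293.4, chr11:70651844-70656799, minus strand), profilin 1, had 1897, 1981 and 2143 CPM in activated libraries, against 1095, 1058 and 1113 CPM in resting libraries. Its groups were far apart and tight, with a log2 change of 0.88 (SE 0.14). Cfl1 (ENSMUSG00000056201.6, chr19:5490455-5494031, plus strand), cofilin 1, had 1856, 2430 and 2313 CPM in activated libraries, against 1430, 1674 and 1643 CPM in resting libraries. The groups just failed to overlap, and the log2 change was 0.48 (SE 0.15). Its call, described below with the other members, was lost without activated replicate 3 (log2 change 0.43) and without resting replicate 2 (0.41), and with upper quartile factors (0.34) or library totals alone (0.14).

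Tmsb4x (ENSMUSG00000049775.15, chrX:167207093-167213479, minus strand), thymosin beta 4, was the only one of the 10 with a log2 change below -0.5 in the TMM-scaled fit. It had 259, 437 and 601 CPM in activated replicates 2, 3 and 4, against 486, 725 and 1297 CPM in resting replicates 2, 3 and 4. The groups overlapped, since resting replicate 2 lay below activated replicate 4, and in each group replicate 2 was the lowest and replicate 4 the highest. The log2 change was -0.94 (SE 0.30), and -0.47 without resting replicate 4, the library with the highest value. Its call was lost there, without activated replicate 2 (log2 change -0.67), without activated replicate 3 (-0.91) and with DESeq2 (-0.91).

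Most of the Tmsb4x records counted in intersection-nonempty mode were missing from the first CDS column. That mode also takes records that lie partly outside the annotated feature, called edge records here; the mode of the first column is not named in the file. The first CDS column counted 114, 348 and 565 records in activated libraries and 231, 447 and 844 in resting libraries, while the intersection-nonempty column, in which no gene has fewer records, counted 535, 1263 and 1625 in activated libraries and 1522, 1751 and 2471 in resting libraries. The share of nonempty records that the first column left out was 72.1 ± 6.74% in activated and 75.0 ± 9.50% in resting libraries (SD, n = 3 each). Over 1657 genes with a mean of at least 100 nonempty counts, the median share was 6.04%, and Tmsb4x lay at the 99.9th percentile. Among the other members the mean shares ran from 3.98% for Myh9 in activated to 18.2% for Pfn1 in resting libraries.

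With scaling by library totals alone, the Tmsb4x groups did not overlap in either column. In the first column it held 0.0223%, 0.0382% and 0.0526% of all CDS counts in activated libraries, against 0.0528%, 0.0790% and 0.142% in resting libraries, a gap that is narrow between activated replicate 4 and resting replicate 2. With edge records counted it had 965, 1270 and 1378 nonempty CPM in activated libraries, against 3140, 2778 and 3715 in resting libraries, scaled by the total of that column, and the gap was wide. In the TMM-scaled fit on that column the log2 change was -1.08. Its share of edge records was 78.7%, 72.4% and 65.2% in activated replicates 2, 3 and 4, and 84.8%, 74.5% and 65.8% in resting replicates 2, 3 and 4, so the spread within each group was wider than the gap between the groups.

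**Figure D3:**
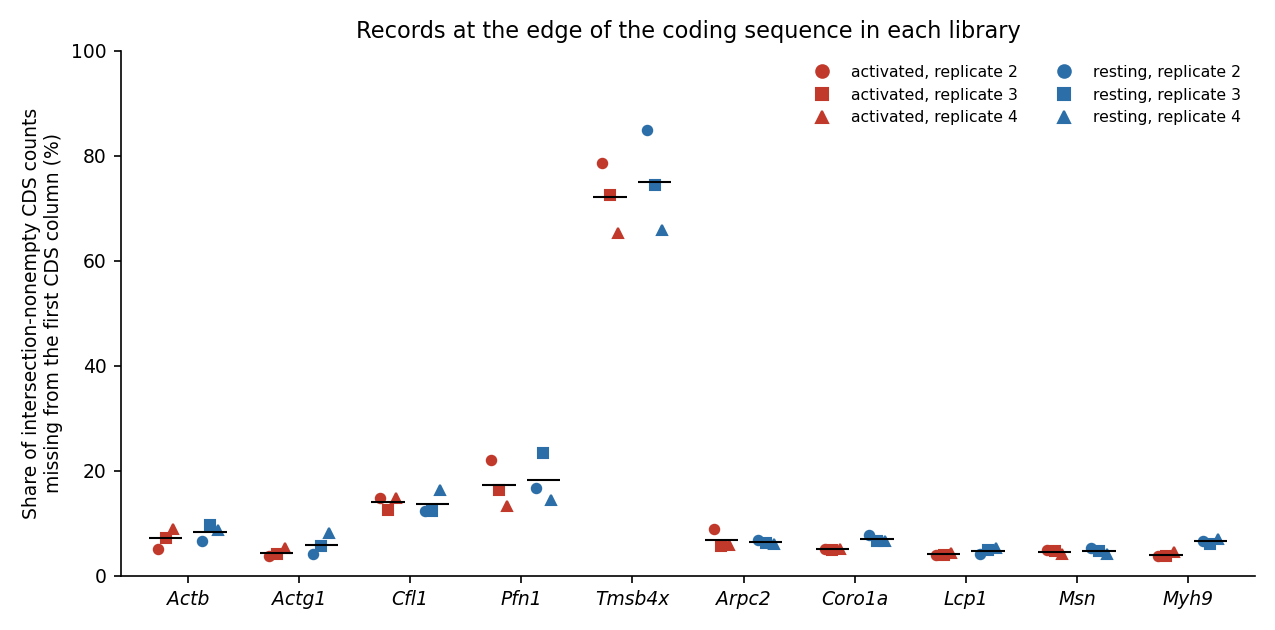
Share of intersection-nonempty CDS counts that the first CDS column leaves out (%), for each gene and library, activated (red) left of resting (blue); bars are means of 3 libraries. Tmsb4x lies between 65.2% and 84.8% in all 6 libraries, and no other gene of the set exceeds 23.3%.

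The 2 proteins of branched networks were close to their resting level in the TMM-scaled fit, which depends on the scaling. With library totals alone the log2 changes were -0.44 for Arpc2 and -0.33 for Coro1a, against a median of -0.38 over all genes. The values that follow are TMM-scaled. Arpc2 (ENSMUSG00000006304.13, chr1:74236490-74268209, plus strand), a structural subunit of the Arp2/3 complex, had 877, 1234 and 1163 CPM in activated libraries, against 1167, 1204 and 1167 CPM in resting libraries. Activated replicate 2 alone lay well below the rest, and the log2 change was -0.11 (SE 0.15). Coro1a (ENSMUSG00000030707.14, chr7:126699774-126704816, minus strand) had 2988, 3069 and 2225 CPM in activated libraries, against 3049, 2912 and 2289 CPM in resting libraries, with replicate 4 lowest in both groups and a log2 change of 0.01 (SE 0.17).

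Lcp1 (ENSMUSG00000021998.15, chr14:75131105-75230842, plus strand), L-plastin, was higher in activated cells, at 4188, 4102 and 4620 CPM, against 1447, 1984 and 1883 CPM in resting cells. The groups did not overlap, and the log2 change was 1.28 (SE 0.16), at the 89.3rd percentile of all genes tested. Relative to gamma-actin in the same library it changed less. There were 190, 237 and 205 Actg1 counts per 100 Lcp1 counts in activated replicates, and 180, 152 and 152 in resting replicates. Actb counts per 100 Lcp1 counts overlapped between the groups, at 413 ± 63.4 in activated and 503 ± 97.6 in resting libraries (SD, n = 3 each).

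The membrane linker and the motor stayed near their resting values in the TMM-scaled fit. Msn (ENSMUSG00000031207.15, chrX:96096045-96168553, plus strand), moesin, had 2386, 2913 and 2518 CPM in activated libraries, against 2919, 3723 and 2650 CPM in resting libraries. The groups overlapped, and the log2 change was -0.25 (SE 0.16). Myh9 (ENSMUSG00000022443.15, chr15:77760585-77842175, minus strand), the heavy chain of non-muscle myosin IIA, had 3879, 4547 and 3567 CPM in activated libraries, against 3837, 4397 and 3351 CPM in resting libraries, a log2 change of 0.05 (SE 0.16). Within a library there were 65.4 ± 4.67 Msn counts per 100 Myh9 counts in activated and 79.9 ± 4.36 in resting libraries. The groups did not overlap in that ratio. The same held for 32 of the 45 pairs of members, a count with no share over other gene pairs beside it, and nothing is read from it.

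In the fit across all genes, 5 of the 10 members had an adjusted p under 0.05 and were higher in activated cells (Actb, Actg1, Cfl1, Pfn1 and Lcp1), 1 was lower (Tmsb4x) and 4 were not called (Arpc2, Coro1a, Msn and Myh9). Over all 6775 genes, 45.7% were called, 24.1% as higher and 21.6% as lower. The CPM of the groups did not overlap, with activated libraries above, in the same 5 members, against 28.1% of all genes; activated libraries lay wholly below resting libraries in 0 members, against 26.7% of all genes. These counts come from the contrast on which the genes were picked, and nothing is read from them. The median log2 change was 0.26 over the 10 genes and -0.04 over all genes tested.

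Scaling moved the whole set up or down together. With library totals alone the median over all genes was -0.38, and the log2 changes were 0.68 for Actb, 1.34 for Actg1, 0.94 for Lcp1, 0.54 for Pfn1, 0.14 for Cfl1, -0.29 for Myh9, -0.33 for Coro1a, -0.44 for Arpc2, -0.59 for Msn and -1.27 for Tmsb4x. Arpc2 and Msn were then called lower and Cfl1 was not called. Actb, Actg1, Cfl1, Pfn1, Lcp1, Msn and Tmsb4x kept their sign under each of the 17 alternatives run. Coro1a changed sign under 8 of them, Myh9 under 5 and Arpc2 under 2, so no direction is given for these 3 genes.

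**Figure D4:**
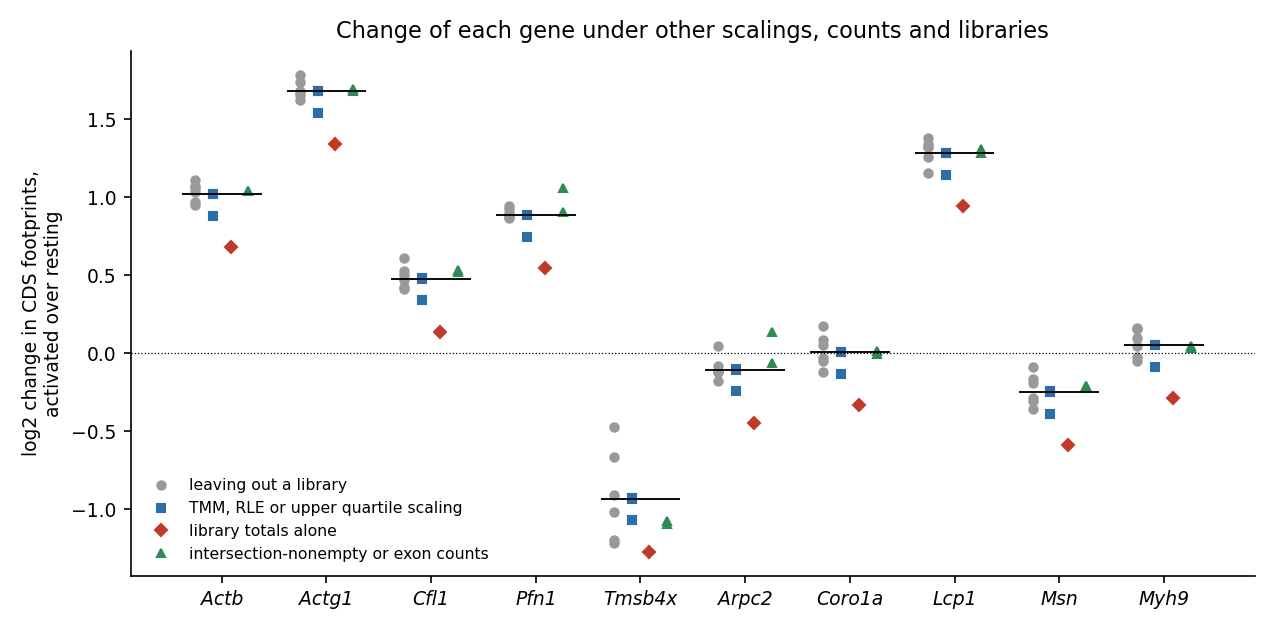
Log2 change in coding footprints, activated over resting, for each gene (black bar, TMM-scaled fit on all 6 libraries), with values after leaving out a library (grey), with TMM, RLE or upper quartile factors (blue), with library totals alone (red) and with other count columns (green). Library totals alone lower every gene by about the same amount, and Tmsb4x has the widest range when a library is left out, from -1.22 to -0.47.

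Counts in the 5' UTR, the leader upstream of the coding sequence, were higher relative to coding counts in activated cells for all 10 genes by the mean of log2 ratios; for Tmsb4x the difference of the plain ratios changed sign when 1 library was left out. This was the direction of most genes: over 2136 genes with a mean of at least 10 counts in each region, the median log2 change of the ratio was 0.36. Of the members, 9 lay above that median and Coro1a lay below it. The leader ratio did not overlap between the groups, with activated libraries above, in 6 members (Actg1, Pfn1, Coro1a, Arpc2, Msn and Myh9), against 18.6% of the 2136 genes, and with activated libraries below in 0, against 3.98%. The ratio shares its coding counts with the contrast that picked the genes, so it too is a description. Activated replicate 2 had more leader counts in general, with 20.4 per 100 CDS counts over all genes but the members, against 14.2 to 15.8 in the other 5 libraries; its part in the values below was not tested.

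Arpc2 had the largest shift. It had 56.0, 29.4 and 23.3 leader counts per 100 CDS counts in activated replicates 2, 3 and 4, against 10.6, 16.0 and 9.49 in resting replicates 2, 3 and 4. Every activated library lay above every resting library, and the log2 change of 1.52 stood at the 98.4th percentile. The difference of the means was 24.2 counts per 100 CDS counts, and 14.3 without activated replicate 2. Its raw leader counts were 216, 289 and 255 in activated and 59, 119 and 72 in resting libraries of unequal depth. Scaled to the leader counts of each library, Arpc2 averaged 1956 ± 259 leader CPM in activated and 1057 ± 260 leader CPM in resting libraries (SD, n = 3 each), 1.85-fold. As a share of all CDS counts, its coding counts were 0.0950 ± 0.0172% in activated against 0.129 ± 0.0022% in resting libraries. Both terms of the ratio thus differed, each on the total of its own region. The coding term depends on the scaling, so no direction is given for it. On library totals the log2 change of Arpc2 was -0.44 and the median over all genes -0.38, while in the TMM-scaled fit Arpc2 had -0.11.

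Pfn1 had 52.9, 30.4 and 25.0 leader counts per 100 CDS counts in activated libraries, against 14.8, 18.9 and 17.4 in resting libraries. The groups did not overlap, the log2 change was 1.01, and the difference of 19.1 between the means was 10.7 without activated replicate 2. Pfn1 also had 46, 31 and 14 counts in the 3' UTR in activated libraries, against 3, 3 and 2 in resting libraries, and 4, 13 and 9 counts in introns, against 0 in each resting library. In RefSeq the Pfn1 gene (chr11:70651844-70656799, minus strand) overlaps Eno3, a muscle enolase gene on the plus strand. No source used here states whether counting used strand, and the part of such records in the Pfn1 values was not tested.

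The actins had few leader counts for their coding counts in both groups. Actb had 8.04, 5.66 and 3.36 per 100 CDS counts in activated replicates 2, 3 and 4, against 3.36, 2.44 and 1.5 in resting replicates 2, 3 and 4. The groups met, since activated replicate 4 and resting replicate 2 had the same rounded value, and replicate 2 was highest and replicate 4 lowest in each. The difference of the means was 3.25, and 2.08 without activated replicate 2. Actg1 was steadier, at 4.02, 4.12 and 4.25 in activated libraries, against 2.43, 2.41 and 1.51 in resting libraries. Over all libraries the level of the ratio was 4.37 for Actb and 3.75 for Actg1, against a median of 33.9 over the 2136 genes, and only 2.53% and 2.01% of genes had a lower one.

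The leader ratios of the remaining members follow. Cfl1 had 13.1 ± 4.91 leader counts per 100 CDS counts in activated and 8.68 ± 1.55 in resting libraries, and Lcp1 had 5.19 ± 0.27 in activated and 3.92 ± 1.27 in resting libraries (SD, n = 3 each); the groups overlapped for both. Msn had 12.0 ± 2.86 in activated and 8.55 ± 0.63 in resting libraries, Myh9 had 8.18 ± 1.19 in activated and 6.17 ± 0.30 in resting libraries, and Coro1a had 12.8 ± 0.94 in activated and 10.7 ± 0.96 in resting libraries, with no overlap for these 3 genes. Without activated replicate 2 the difference of the means was 1.95 rather than 3.50 for Msn, 1.33 rather than 2.01 for Myh9 and 7.15 rather than 4.40 for Cfl1, while for Cfl1 it was 2.43 without activated replicate 4. For Lcp1 it was 1.27, with 1.92 without resting replicate 2 and 0.65 without resting replicate 4. Tmsb4x spread most, with 58.8, 25.6 and 17.2 in activated and 46.3, 23.5 and 4.15 in resting replicates 2, 3 and 4. The difference of its means was 9.19, and it was -3.28 without activated replicate 2 and -1.07 without resting replicate 4, so no direction is given. Against nonempty counts, which restore its edge records, the same leader counts came to 12.5, 7.05 and 5.97 per 100 in activated and 7.03, 6.00 and 1.42 per 100 in resting libraries.

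**Figure D5:**
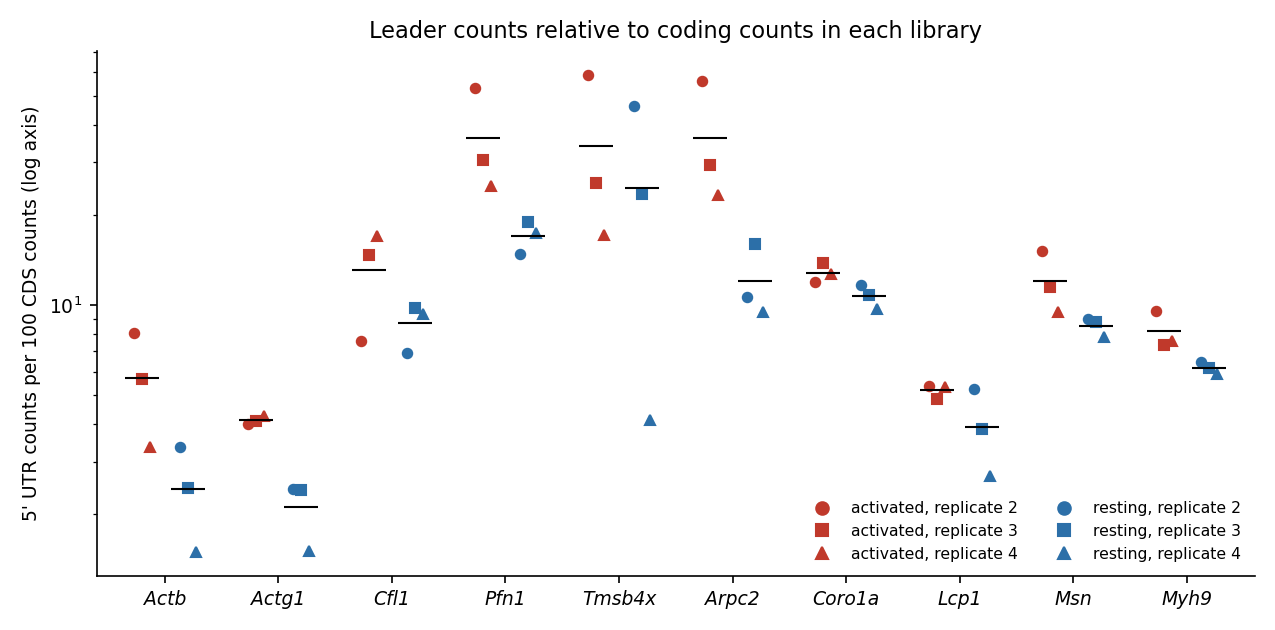
Leader (5' UTR) counts per 100 CDS counts on a log axis for each gene and library, activated (red) left of resting (blue); bars are means of 3 libraries. All 3 activated libraries of Arpc2 (23.3 to 56.0) and Pfn1 (25.0 to 52.9) lie above the resting libraries (9.49 to 16.0 for Arpc2 and 14.8 to 18.9 for Pfn1), and activated replicate 2 is the highest library for Actb, Pfn1, Tmsb4x, Arpc2, Lcp1, Msn and Myh9.

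Likeness to the actins was measured as Pearson's correlation of log2 CPM over the 6 libraries among 2316 genes with a mean of at least 100 CPM. The 6 libraries are those of the contrast, so the gap between the groups enters each value. The gene most like Actb was ENSMUSG00000026395.15 (r = 0.998), at 7464 ± 898 CPM in activated and 3459 ± 323 CPM in resting libraries. The gene most like Actg1 was ENSMUSG00000020849.12 (r = 0.999), at 584 ± 22.1 CPM in activated and 393 ± 12.6 CPM in resting libraries (SD, n = 3 each). Within the set, Actg1 was closest to Pfn1 (r = 0.990), Actb (r = 0.987) and Lcp1 (r = 0.983), while its r was -0.03 with Coro1a and -0.57 with Tmsb4x. The file names neither of the 2 most similar genes, and nothing is drawn here on what they share.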

How the data were processed

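Ribosome footprints were measured in 3 activated and 3 resting libraries. The authors deposited raw read counts per gene, in 36 columns of 1 table, 6 per library (CDS in 2 modes, 5' UTR, 3' UTR, exons and introns), per the file headers. The submitters' processing notes list TopHat2 2.0.13, Bowtie 1.1.1.0, HTSeq and mm10; for the annotation release, read trimming and use of strand no source used here gives a setting. Columns were matched to libraries by the number in each library's description. The 5 summary rows that name no gene stayed out of library sizes and tests: per library, records not uniquely aligned made up 65.8% to 79.6%, those in no CDS 11.8% to 14.5% and ambiguous ones 0.0398% to 0.0985%.

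The first CDS column was the main count. It was fitted over all genes with edgeR 4.0.16 in R 4.3.3 (filterByExpr, TMM, estimateDisp, glmQLFit with legacy off, two-sided glmQLFTest; Benjamini-Hochberg, threshold 0.05), with no block for the replicate number. SE is the log2 change over the square root of F. The fit was also run on simulated counts with 200 genes changed, equally up and down, at a common dispersion. In the data 3097 of 6775 genes were called, so that simulation does not vouch for the scaling or the error rate here. Leader ratios use a pseudocount of 0.5 on the log2 scale. Shares carry Wilson intervals at 95%. DESeq2 1.42.0 and limma 3.58.1 (voom) were alternatives, with other scalings, filters and count columns and each library left out.

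All 10 members were named. The plan also named pathway genes by class and cell type markers; neither could be matched to identifiers. Of the 2 genes most like each actin, only the top one is printed. The members, lists and motifs were chosen with earlier results of these data known. Promoters are from RefSeq, GRCm38.p6.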

Additional observations from a re-analysis of the deposited data

How the results depend on the processing

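The number of genes changed in CDS counts was 3097 and stayed within 1.5 times that under all 17 alternatives, 2 of which (scaling without the members, thinned counts) were chosen after seeing the data. It ran from 2218 with DESeq2 to 3674 with library totals alone, and from 2654 to 3055 when 1 library was left out. The number of members called lower was 1, and was 3 with library totals alone (Tmsb4x, Arpc2 and Msn), 0 with DESeq2 and between 0 and 1 when 1 library was left out. It was 0 without activated replicate 2, without activated replicate 3 and without resting replicate 4. The number called higher was 5, and 4 with upper quartile factors, with library totals alone, without activated replicate 3 and without resting replicate 2, where Cfl1 was not called. Log2 changes of single members moved by more than 1 SD between libraries in 14 values and by less in 156; no called member changed sign. The share held by the members was 0.99 percentage points higher in activated libraries, from 0.80 to 1.17 when 1 library was left out. Their leader counts per 100 CDS counts were 2.62 higher, from 1.53 without activated replicate 2 to 3.46 without activated replicate 4. With the replicate number as a block (replicate block), 3455 genes were called, and 5 members were called higher and 1 lower. To compare replicate numbers, each library's deviations in log2 CPM from its group mean were correlated between the groups. These deviations correlated at 0.08 to 0.28 for same-numbered libraries and at -0.20 to 0.003 for differently numbered ones. Each library's highest value was with its own number, a hint from the data and not from the design. Deviations cancel within a group, so a positive value with the same number forces a negative value with another, and the pattern is partly built in. Alternatives for the wider actin pathway were not run, because identifiers could not be matched to symbols. Depth limits Tmsb4x most, with 114 to 844 first-column CDS counts per library.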
